A study of Homo sapiens with 9 samples.

Results

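IL1RN, COLEC12, MYRIP, MID1 and MAPRE2 are 5 genes that androgen strongly lowered in prostate cancer cells, of 12165 genes measured by a probe set of their own. They were chosen by their fall with androgen on these same arrays, so that fall is given as a description with no test. A probe set is a group of short array probes read as one value, and the 5 genes had 12 single-gene probe sets: 5 for IL1RN, 3 for MAPRE2, 2 for MID1 and 1 each for COLEC12 and MYRIP. All 12 are described. Where a gene has several, the brightest over all arrays stands for it.

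The cells were LNCaP, a human prostate carcinoma line that depends on androgen and is often used to study the androgen receptor. All 9 cultures were first starved of androgen for 2 days in medium with 10% charcoal-stripped serum, a serum from which steroids have been removed. The vehicle group received ethanol and DMSO for 24 h, the androgen group 1 nM R1881 with DMSO, and the third group 1 nM R1881 together with 1.25 µM celastrol for 24 h, with 3 arrays each. R1881 is a synthetic androgen that resists metabolism by cells, and celastrol is a plant triterpenoid. The labels disagree on the androgen group: its titles say 6 h while its descriptions and treatment protocol say 24 h. A different time would touch every value set against the androgen arrays, including the share of the fall that was kept, but not the comparison of androgen plus celastrol with vehicle. No group given celastrol without androgen was analysed here. The labels call the arrays biological replicates of 1 cell line and do not say whether each was a separate culture on a separate day.

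The androgen receptor is a transcription factor that enters the nucleus when bound by hormone. It switches on genes such as KLK3, the prostate-specific antigen gene, and lowers many others in LNCaP cells. The 5 genes have unrelated products: a secreted blocker of a cytokine receptor, a scavenger receptor of the cell surface, a linker between secretory granules and a myosin motor, a ubiquitin ligase on microtubules, and a protein of growing microtubule ends.

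The arrays differed little in overall level, with a median intensity between 72.2 and 80.2, but vehicle array 3 had an upper quartile of 332 against 377 to 409 on the other arrays. All 10 measured luminal prostate markers lay above the median of all probe sets, and the hormone target KLK3 was 2.15 ± 0.08 log2 higher with androgen than vehicle (SE; limma, adjusted p = 1.25e-06). None of the 11 leukocyte and macrophage markers and none of the 7 endothelial markers reached that median. Their summed intensity on an array was 424 to 471 for the leukocyte list over all 9 arrays. For the endothelial list it was 343 to 435 with vehicle, 258 to 275 with androgen and 245 to 293 with androgen plus celastrol. Of the 7 endothelial genes, 1 was called between androgen and vehicle, VWF (-1.13 log2; limma, adjusted p = 0.00086). One of 7 basal, 1 of 7 neuroendocrine and 1 of 12 fibroblast and muscle markers lay above the median, namely DST, ENO2 and ACTA2. The neuroendocrine list summed to 418 to 537 with vehicle, 319 to 326 with androgen and 402 to 460 with androgen plus celastrol, and ENO2 was lower with androgen than vehicle (-1.10 log2; limma, adjusted p = 0.0302). The basal list summed to 432 to 453, 364 to 379 and 444 to 472 in the same order, and the fibroblast and muscle list to 690 to 799, 709 to 774 and 618 to 655. In the fibroblast and muscle list, ACTA2 was called higher (0.66 log2; limma, adjusted p = 0.0216) and COL3A1 lower (-0.43 log2, 0.0224) with androgen than vehicle. The part of these markers in the results was not tested. Intensities are the authors' values on a linear scale, and their number of arrays limits the precision.

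RefSeq lists 13 start sites for the 5 genes, and each was read in a window from 250 bases before to 50 after the start in build GRCh38.p14. COLEC12, MID1 and MAPRE2 were called on their brightest probe set between androgen and androgen plus celastrol. For these genes the 150 bases just before a start are printed. They are given 5′ to 3′ on the gene's strand, COLEC12 at chr18:500702-500851 on the minus strand, MID1 at chrX:10833684-10833833 on the minus strand and MAPRE2 at chr18:35041263-35041412 on the plus strand. Capitals mark a match to one of 4 short motifs searched on both strands.
COLEC12: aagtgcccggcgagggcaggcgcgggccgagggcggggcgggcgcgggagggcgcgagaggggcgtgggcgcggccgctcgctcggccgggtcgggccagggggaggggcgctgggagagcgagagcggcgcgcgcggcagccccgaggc
MID1: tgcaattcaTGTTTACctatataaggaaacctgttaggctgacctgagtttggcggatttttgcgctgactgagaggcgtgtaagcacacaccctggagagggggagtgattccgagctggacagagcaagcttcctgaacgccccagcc
MAPRE2: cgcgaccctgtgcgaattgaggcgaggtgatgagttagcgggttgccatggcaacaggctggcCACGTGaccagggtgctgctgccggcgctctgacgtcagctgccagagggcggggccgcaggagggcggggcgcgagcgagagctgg
The motifs were AGAACA, a half-site bound by steroid receptors, TGTTTAC, a forkhead motif, CACGTG, an E-box, and TATAAA, the TATA motif. AGAACA was in 0 of the 13 windows, against 14.8% of 35116 windows of the same length over all genes. TGTTTAC was in the MID1 window printed, starting 141 bases before the start, against 3.42% of all windows. CACGTG was in both MAPRE2 windows, 87 and 45 bases before their starts, against 7.26% of all, and TATAAA in 1 IL1RN window, against 11.5%. The stretches differ in base composition: the COLEC12 window held 49 CpG pairs at 79.7% GC and the printed MAPRE2 window 25 at 69.7%, while the MID1 window held 8 at 52.3%, beside a median over all windows of 14 and 58.7%. These matches describe letters near the starts and say nothing about which factors bind.

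With androgen alone, the 5 genes ranked 1st (IL1RN), 5th (MID1), 6th (MAPRE2), 7th (MYRIP) and 15th (COLEC12) by size of fall among the 12165 genes. Their levels on vehicle arrays lay between the 78.8th and the 90.9th percentile of all probe sets, and on androgen arrays between the 47.2nd and the 70.1st. With celastrol added to androgen, all 5 stayed far below vehicle, but not to the same depth. By the brightest probe sets, IL1RN and MYRIP did not differ from androgen alone past the test. MID1 and MAPRE2 were higher than with androgen alone on those probe sets, and COLEC12 was lower still. The second probe sets, 203637_s_at of MID1 and 213489_at of MAPRE2, did not pass (limma, adjusted p = 0.976 and 0.664). On the bulk arrays used here, fewer expressing cells and less RNA per cell cannot be told apart. The plot of levels on every array shows the 3 groups for the brightest probe set of each gene.

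**Figure D1:**
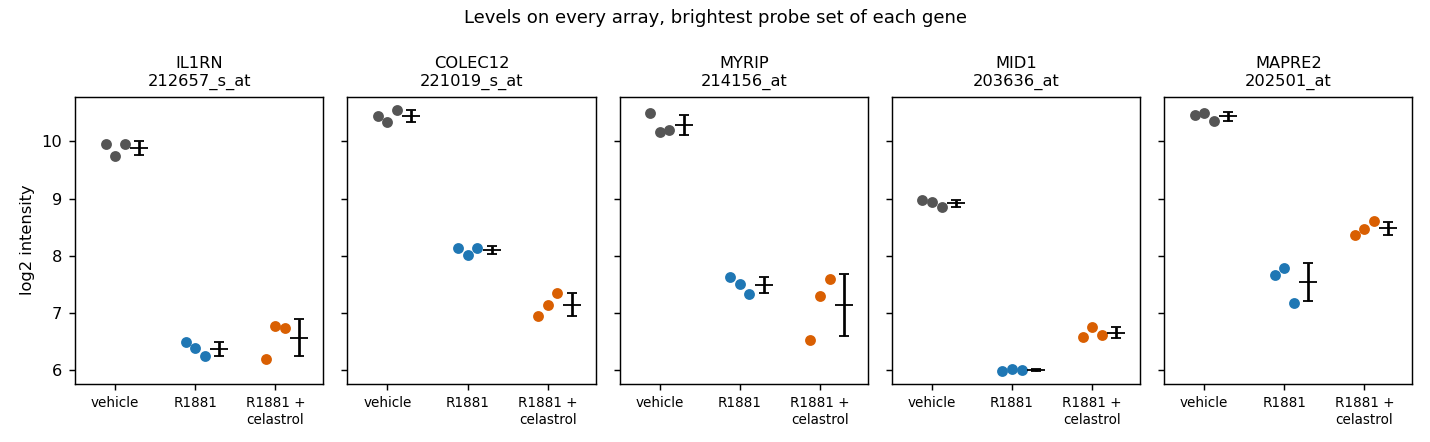
Log2 intensity (vertical axis) of the brightest probe set of each of the 5 genes on every array, by group, with dots for arrays and bars for the mean ± SD of 3 arrays. Vehicle arrays lie above all others in every panel, and the celastrol arrays lie above the androgen arrays for MID1 and MAPRE2, below them for COLEC12, and overlap them for IL1RN and MYRIP.

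IL1RN encodes the interleukin-1 receptor antagonist, a secreted protein that occupies the IL-1 receptor without signalling. Its brightest probe set, 212657_s_at, had intensities of 989, 852 and 992 with vehicle, 90.0, 84.1 and 75.7 with androgen, and 73.3, 110.0 and 107 with androgen plus celastrol. The vehicle arrays stood apart from the other 6, and the androgen and celastrol arrays overlapped. Androgen minus vehicle was -3.50 ± 0.16 log2 (SE, n = 3 arrays a group), an 11.3-fold fall. The difference between androgen plus celastrol and vehicle was -3.31 ± 0.16 log2 (limma, adjusted p = 4.64e-06). The difference between androgen plus celastrol and androgen was 0.20 ± 0.16 log2 (95% interval -0.17 to 0.56; limma, adjusted p = 0.556).

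A second IL1RN probe set, 216243_s_at, read 335, 360 and 225 with vehicle, 72.9, 51.8 and 66.4 with androgen, and 69.6, 76.9 and 65.2 with androgen plus celastrol. Another, 212659_s_at, read 197, 130 and 117, then 54.6, 44.4 and 55.1, then 62.7, 50.9 and 55.8. Both showed the pattern of the brightest one at lower levels, with no overlap between vehicle and the other groups. Against vehicle, androgen plus celastrol was lower, by -2.09 ± 0.19 log2 on 216243_s_at (limma, adjusted p = 9.9e-05) and -1.36 ± 0.19 log2 on 212659_s_at (adjusted p = 0.00115). The fourth, 216244_at, varied among arrays of a group, from 44.9 to 159 with vehicle, 36.9 to 98.7 with androgen and 33.5 to 49.6 with androgen plus celastrol. Its difference of -1.11 ± 0.48 log2 from vehicle did not pass (adjusted p = 0.155), although it did without vehicle array 2 (adjusted p = 0.0379). The fifth, 216245_at, lay at or below the 5.07th percentile of probe sets in every group, at the bottom of the array's range.

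COLEC12 encodes a scavenger receptor with a collagen-like stalk and a sugar-binding head, which takes up modified lipoproteins and microbes. Its 1 probe set, 221019_s_at, read 1397, 1300 and 1500 with vehicle, 281, 258 and 281 with androgen, and 123, 142 and 164 with androgen plus celastrol. The 3 groups did not overlap, and each celastrol array lay below each androgen array. Androgen minus vehicle was -2.35 ± 0.12 log2, a 5.11-fold fall. With celastrol added, the gene was lower again than with androgen, by a difference of -0.95 ± 0.12 log2 (95% interval -1.21 to -0.68; limma, adjusted p = 0.000989), and differed from vehicle by -3.30 ± 0.12 log2 (adjusted p = 9.29e-07). That step passed with each of the 9 arrays left out in turn, with adjusted p values up to 0.00727. COLEC12 thus reached a lower percentile of all probe sets with celastrol, 60.4, than with androgen alone, 70.1.

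MYRIP encodes a protein that links RAB27A on secretory granules to myosin and actin. Its 1 probe set, 214156_at, read 1434, 1140 and 1180 with vehicle, 199, 181 and 162 with androgen, and 93.0, 158 and 194 with androgen plus celastrol. Vehicle stood apart, while the celastrol arrays spread from below the lowest to near the highest androgen array. Androgen minus vehicle was -2.79 ± 0.24 log2, a 6.92-fold fall. The difference between androgen plus celastrol and androgen was -0.35 ± 0.24 log2 (95% interval -0.89 to 0.20; limma, adjusted p = 0.473), which leaves room for a further fall as large as the lower bound. Without celastrol array 1 that difference was -0.04 log2. The difference between androgen plus celastrol and vehicle was -3.14 ± 0.24 log2 (adjusted p = 3.96e-05).

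MID1 encodes a ubiquitin ligase that binds microtubules and controls the amount of the phosphatase PP2A; its loss causes Opitz syndrome. Its brightest probe set, 203636_at, read 502, 488 and 461 with vehicle, 63.8, 65.0 and 64.4 with androgen, and 96.4, 109 and 97.8 with androgen plus celastrol. The 3 groups did not overlap, and the celastrol arrays lay just above the tightly grouped androgen arrays. Androgen minus vehicle was -2.91 ± 0.08 log2, a 7.51-fold fall. Androgen plus celastrol was 0.65 ± 0.08 log2 above androgen (95% interval 0.46 to 0.83; limma, adjusted p = 0.00109) and differed from vehicle by -2.26 ± 0.08 log2 (adjusted p = 9.62e-07).

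The second MID1 probe set, 203637_s_at, did not show this rise. It read 503, 409 and 564 with vehicle, 55.9, 64.1 and 93.1 with androgen, and 80.6, 63.8 and 67.2 with androgen plus celastrol, so the last 2 groups overlapped. Its difference between them was 0.02 ± 0.20 log2 (limma, adjusted p = 0.976), while the gap to vehicle was -2.80 ± 0.20 log2 (adjusted p = 2.65e-05). With vehicle and androgen 203637_s_at averaged 492 and 71.0, against 484 and 64.4 on 203636_at. Only the celastrol arrays (70.5 against 101) made 203636_at the brightest, so that choice favours the rise. The difference between the MID1 probe sets was not tested. Averaging them left a rise of 0.33 log2 that did not pass (adjusted p = 0.0747).

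MAPRE2 encodes EB2, one of the EB proteins that ride on growing microtubule ends. Its brightest probe set, 202501_at, read 1410, 1449 and 1305 with vehicle, 203, 221 and 144 with androgen, and 331, 352 and 389 with androgen plus celastrol. The 3 groups did not overlap, with the celastrol arrays between the other groups. Androgen minus vehicle was -2.90 ± 0.15 log2, a 7.45-fold fall. Androgen plus celastrol was 0.94 ± 0.15 log2 above androgen (95% interval 0.59 to 1.29; limma, adjusted p = 0.00438) and differed from vehicle by -1.96 ± 0.15 log2 (adjusted p = 4.51e-05).

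A dimmer MAPRE2 probe set, 213489_at, read 242, 219 and 115 with vehicle, 50.8, 50.1 and 36.2 with androgen, and 41.9, 64.7 and 60.3 with androgen plus celastrol. Its last 2 groups overlapped and differed by 0.28 ± 0.29 log2 (limma, adjusted p = 0.664), while androgen plus celastrol differed from vehicle by -1.74 ± 0.29 log2 (adjusted p = 0.00293). The remaining one, 211556_at, lay at or below the 3.98th percentile in every group. Averaging the 3 probe sets gave a rise of 0.44 log2 that did not pass (adjusted p = 0.0787). The plot of the other probe sets shows these values beside those of IL1RN and MID1.

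**Figure D2:**
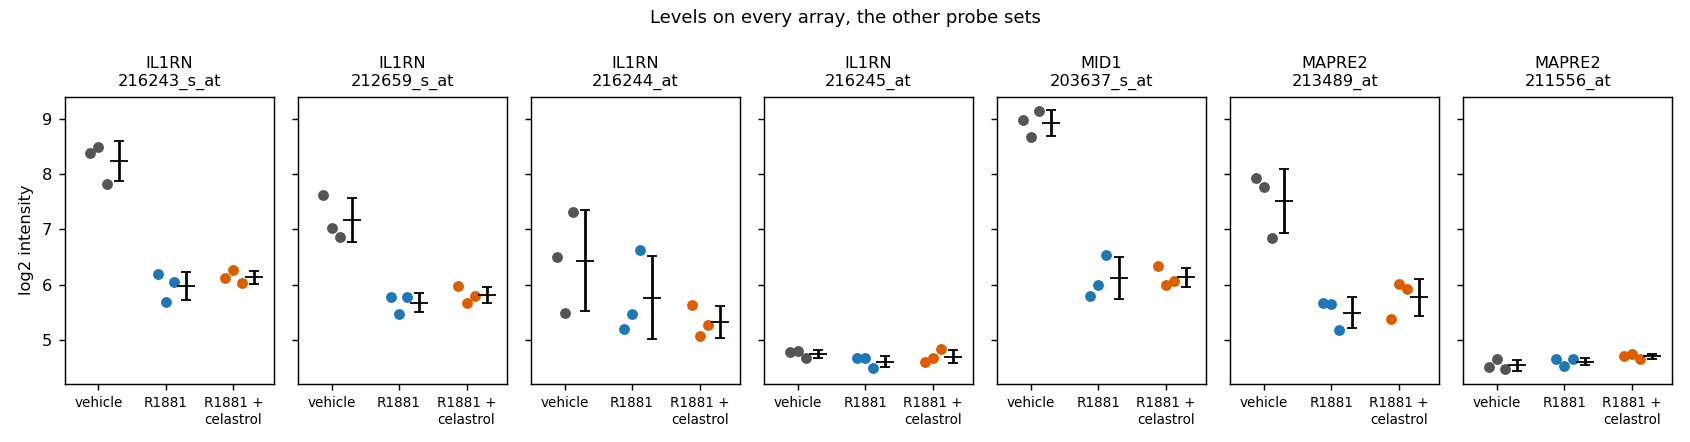
Log2 intensity (vertical axis) on every array for the 7 probe sets of IL1RN, MID1 and MAPRE2 that are not the brightest of their gene, by group, with dots for arrays and bars for the mean ± SD of 3 arrays. In 216243_s_at, 212659_s_at, 203637_s_at and 213489_at the vehicle arrays lie above all others, 216244_at spreads widely, and 216245_at and 211556_at stay at the bottom of the scale.

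Counted by gene, androgen plus celastrol was called lower than vehicle for 5 of 5 genes, where 9.30% of all genes were lower and 12.6% higher. By probe set it was called lower for 9 of 12, against 7.94% of all probe sets. Because these genes were chosen by a fall against the same vehicle arrays, that count is not independent of the choice. Against androgen, 2 of 5 genes were called higher, MID1 and MAPRE2, where 8.13% of all genes were, and 1 of 5 lower, COLEC12, where 6.60% were. By probe set that was 2 of 12 higher and 1 of 12 lower, against 6.91% and 5.66% of all. This comparison shares the androgen arrays with the one that chose the genes. A call is a Benjamini-Hochberg adjusted p under 0.05 from limma over all 22215 probe sets.

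How far each gene stayed repressed can be read as the share of its log2 fall with androgen that was kept with celastrol, where 100% is the level with androgen alone and 0% the level with vehicle. IL1RN kept 94.4% (95% Fieller interval 84.8 to 105), MYRIP 112% (93.4 to 136) and COLEC12 140% (127 to 156). MID1 kept 77.7% (72.1 to 83.6) and MAPRE2 67.6% (57.1 to 78.6). The intervals of MID1 and MAPRE2 lay wholly below 100%, that of COLEC12 wholly above it, and those of IL1RN and MYRIP included it. The share divides by the fall that chose these genes, and the intervals do not allow for that choice. On the other probe sets with a fall of at least 1 log2, IL1RN kept 93.0% (75.6 to 114) and 90.8% (65.2 to 124), MID1 99.4% (84.4 to 117) and MAPRE2 86.3% (57.9 to 123). So the 3 IL1RN probe sets gave like shares. The second probe sets of MID1 and MAPRE2 gave higher estimates than the brightest, but the 2 intervals of MAPRE2 overlapped. With androgen, 216243_s_at, 212659_s_at, 203637_s_at and 213489_at averaged 63.7, 51.4, 71.0 and 45.7. These levels lay below the lowest array median of 72.2, as did 203636_at at 64.4. How far the bottom of the range limits these shares was not tested.

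**Figure D3:**
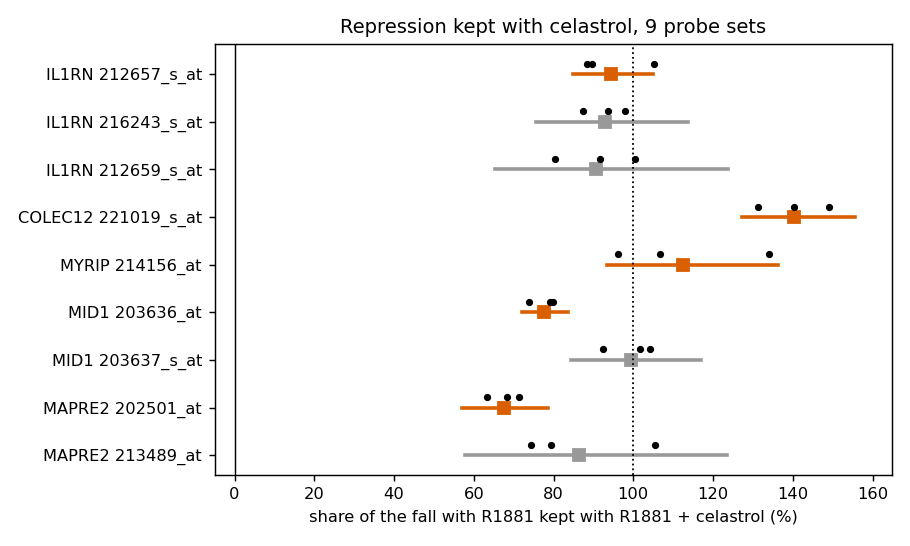
Share in percent of the log2 fall with androgen that was kept with androgen plus celastrol (horizontal axis) for the 9 probe sets with a fall of at least 1 log2; squares are estimates, bars 95% Fieller intervals, small dots the 3 celastrol arrays, and orange marks the brightest probe set of a gene. The dotted line at 100% is the level with androgen alone: COLEC12 lies above it at 140%, and the brightest probe sets of MID1 and MAPRE2 lie below it at 77.7% and 67.6%.

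The 5 were set beside the other genes with like falls. In all, 21 genes were called lower with androgen by at least 2 log2, and 16 of them were not among the 5. The 5 were chosen by this same fall, so their place among the 21 is no test of it. Those 16 kept between -41.6% and 126% of their fall, with a median of 87.2% and quartiles of 62.4 and 97.3%. With celastrol, 7 of the 16 were called higher than androgen, 1 lower and 8 neither, and 13 were called lower than vehicle. COLEC12 kept the highest share of the 21, MYRIP was 18th from the lowest, IL1RN 14th, MID1 8th and MAPRE2 6th. No test of this order was made.

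At the far end, FGF13, a fibroblast growth factor homologue, kept -41.6% and was 0.95 log2 above vehicle with celastrol (limma, adjusted p = 0.00152). SERPINI1, neuroserpin, kept 16.6%, and ACKR3, an atypical chemokine receptor, kept 46.8%. BCHE, butyrylcholinesterase, fell by 3.39 log2 and kept 67.6%, close to MAPRE2. UGT2B17, an enzyme that attaches glucuronic acid to androgens, fell by 3.38 log2 and kept 97.6%, close to IL1RN. DDC, which makes dopamine and serotonin from their precursors, was the other gene of the 21 called lower with celastrol than with androgen (-0.56 log2, adjusted p = 0.00554).

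**Figure D4:**
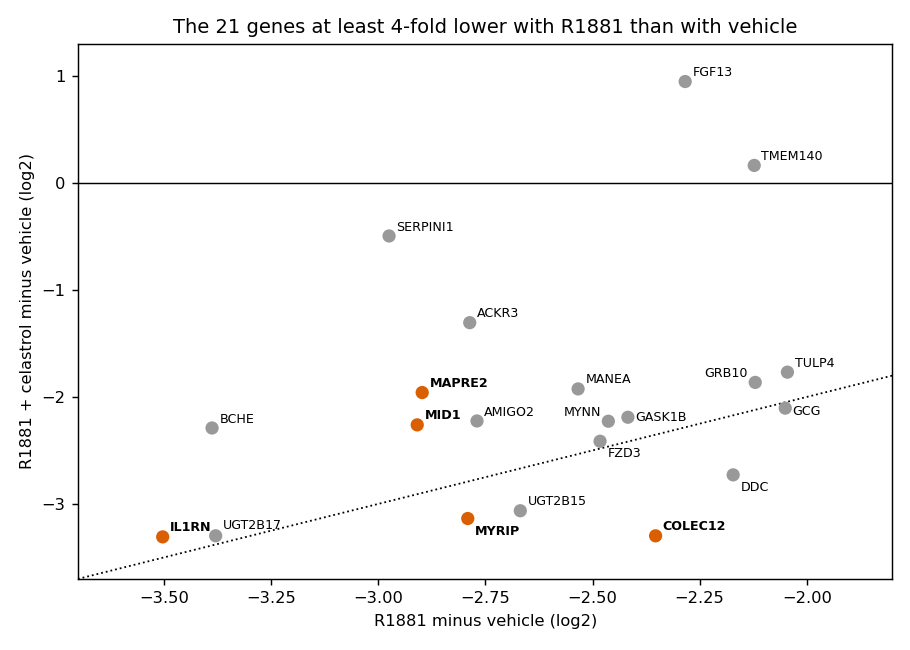
For the 21 genes called lower with androgen by at least 2 log2, the difference between androgen and vehicle (horizontal axis, log2) against that between androgen plus celastrol and vehicle (vertical axis, log2), with the 5 genes described in orange. Both axes share the vehicle arrays; the dotted line marks equal differences, with COLEC12 farthest below it and FGF13 and TMEM140 above 0.

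Across the 9 arrays, the genes most alike to each of the 5 were found by Pearson correlation of log2 levels, a measure the group differences dominate. IL1RN was most like PMS2 (r = 0.999), EFCAB11 (0.997) and CDK8 (0.994). COLEC12 was most like PEG3 (0.999), PIK3R3 (0.997) and DPYSL2 (0.995), which kept 141%, 137% and 139% of their falls with androgen. Genes picked by so high a correlation with COLEC12 keep nearly its share by that choice, so these shares are no separate evidence. MYRIP was most like CCNG2 (0.993), EFCAB11 (0.988) and UGT2B15 (0.987). MID1 was most like MANEA (0.997), AMIGO2 (0.996) and RETREG1 (0.992), and MAPRE2 most like SSBP2 (0.992), PTPN13 (0.991) and SEMA6A (0.991). Among themselves the 5 correlated between 0.812, for COLEC12 and MAPRE2, and 0.984, for MID1 and MAPRE2.

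The other measured genes around each of the 5 were described by list, without the gene itself. Over all genes, 6.71% were called higher and 5.35% lower with androgen than vehicle, which makes 55.6% of the called genes higher. That split was 69.3% higher when each array's median was subtracted. Between androgen plus celastrol and vehicle, 57.6% of called genes were higher, and 47.4% after quantile normalization. The median difference over all genes was -0.04 log2 for androgen against vehicle and 0.02 log2 for androgen plus celastrol against androgen.

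Of 27 measured genes of IL-1 family signalling other than IL1RN, 1 was called higher and 1 lower with androgen, with a median of -0.10 log2. The lower one was IL1RAP, the co-receptor that the IL-1 receptor needs to signal, which read 168, 165.3 and 221 with vehicle, 79.4, 68.5 and 100.4 with androgen, and 85.3, 89.8 and 82.7 with androgen plus celastrol. It fell by 1.16 ± 0.16 log2 with androgen (limma, adjusted p = 0.00147) and differed by 0.07 log2 between androgen plus celastrol and androgen (adjusted p = 0.856). Averaging its probe sets ended the call (-0.78 log2, adjusted p = 0.0873). The higher one was IL1R1, the signalling receptor, by 0.41 ± 0.08 log2 (adjusted p = 0.0135), a call lost without vehicle array 1 (adjusted p = 0.0595) or androgen array 2 (0.0648). It was also lost after quantile normalization (0.0695), after cyclic loess (0.066) and with its probe sets averaged (0.24 log2, 0.201). Without vehicle array 3, or in the paired fit with the replicate number as a block, 2 were called lower, with IL36G, an IL-1 family ligand, added (adjusted p = 0.0469 and 0.0396). IL36G averaged 50.4 with vehicle, 37.4 with androgen and 36.3 with androgen plus celastrol, below the array medians. The ligands IL1A and IL1B averaged 42.6 to 53.3 and 40.3 to 46.5 in the 3 groups, also below the array medians.

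With celastrol added, 2 of the 27 IL-1 genes were called higher than androgen and 0 lower by limma (1 lower at an unadjusted p under 0.05), with a median of 0.03 log2. They were TAB2, an adaptor of the TAK1 kinase, by 0.42 log2 (limma, adjusted p = 0.0134), and SIGIRR, an inhibitory receptor of the family, by 0.37 log2 (adjusted p = 0.0149). Without androgen array 2 neither passed (adjusted p = 0.0613 and 0.0681). TAB2 also missed without celastrol array 3 (0.051) and SIGIRR without androgen array 3 (0.0564) or with its probe sets averaged (0.32 log2, 0.0987).

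Of 23 measured scavenger receptors and collectins other than COLEC12, 0 were called in either direction with androgen, and 0 when celastrol was added, by limma at an adjusted p under 0.05. At an unadjusted p under 0.05 1 was higher and 1 lower in each comparison. The class A receptors closest to COLEC12 in kind, MSR1 and SCARA3, averaged 44.5 to 47.7 and 31.8 to 36.2 in the 3 groups, near the bottom of the range. Without vehicle array 3, 1 gene, SCARB2, a receptor of the lysosome membrane, was called lower with celastrol than androgen (-0.28 log2, adjusted p = 0.0458). The list's medians were -0.07 log2 with androgen and 0.09 log2 for celastrol against androgen.

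The genes of granule transport moved in both directions with androgen. Of 24 measured genes of Rab27 and myosin granule transport other than MYRIP, 4 were called higher and 2 lower with androgen, with a median of 0.06 log2. RAB27A, the small GTPase that MYRIP binds, read 167, 139 and 149 with vehicle, 822, 867 and 836 with androgen, and 416, 419 and 430 with androgen plus celastrol. It rose by 2.48 ± 0.09 log2 with androgen (limma, adjusted p = 9.63e-07), and with celastrol added its mean intensity was lower, 422 against 842 with androgen (adjusted p = 0.000175). MLPH, melanophilin, a second RAB27A partner that recruits myosin, rose by 1.02 ± 0.08 log2 (adjusted p = 6.87e-05). The others called higher were MYO5C, a myosin V of secretory epithelia, by 0.36 log2 (adjusted p = 0.0257) and SNAP23, a granule fusion protein, by 0.46 log2 (adjusted p = 0.00508). MYO7A, another myosin of the list, averaged 39.1 to 44.9 in the 3 groups, below the array medians. It was not called with androgen (-0.17 log2; limma, adjusted p = 0.691).

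EXPH5, a RAB27 effector of granule release, had a difference between androgen and vehicle of -1.23 ± 0.11 log2 (limma, adjusted p = 0.000157). It read 426, 439 and 460 with vehicle, 196, 193 and 175 with androgen, and 284, 372 and 363 with androgen plus celastrol. Unlike in MYRIP, the celastrol arrays lay above the androgen arrays, by 0.85 log2 (adjusted p = 0.00166). MYO5A, the granule motor of pigment cells, fell by 0.62 log2 (adjusted p = 0.00411) and was 0.73 log2 higher with celastrol than androgen (adjusted p = 0.00199), and both calls ended when its probe sets were averaged (0.0714 and 0.0632). Whether MYRIP and EXPH5 differed in their response to celastrol was not tested.

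For celastrol added to androgen, 4 genes of the granule list were called higher and 4 lower, with a median of -0.10 log2. Only 2 were higher without androgen array 2, celastrol array 2 or celastrol array 3, and only 2 lower without androgen array 1, androgen array 2 or celastrol array 2. The difference for MLPH, -0.39 log2 (limma, adjusted p = 0.0146), was lost with any 1 of the last 3 arrays left out (adjusted p = 0.0566, 0.0611 and 0.0557).

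**Figure D5:**
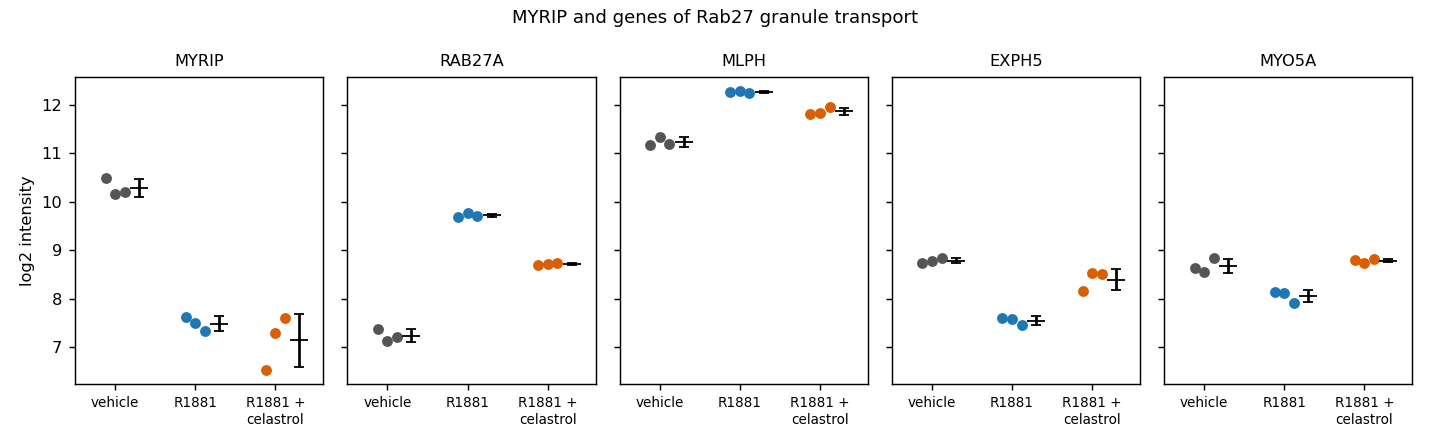
Log2 intensity (vertical axis) on every array for MYRIP and 4 genes of Rab27 granule transport, by group, with dots for arrays and bars for the mean ± SD of 3 arrays. RAB27A and MLPH are highest with androgen, EXPH5 and MYO5A are lowest with androgen, and MYRIP is highest with vehicle with overlapping androgen and celastrol arrays.

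Of 24 measured relatives of MID1 and parts of PP2A, the phosphatase whose catalytic subunit MID1 marks for degradation, 2 were called higher and 4 lower with androgen, with a median of -0.06 log2. The higher ones were TRIM36, a ligase of the same family, by 1.13 ± 0.11 log2 (limma, adjusted p = 0.000177) and PPP2CB, a catalytic subunit, by 0.72 ± 0.08 log2 (adjusted p = 0.00034). The lower ones were the regulatory subunits PPP2R2A (-0.66 log2, adjusted p = 0.00161), PPP2R5A, PPP2R5B and PPP2R5E. Only 2 were lower without vehicle array 1, vehicle array 2 or androgen array 2, and also 2 with the replicate number as a block.

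MID2, the closest relative of MID1, read 419, 351 and 361 with vehicle, 422, 331 and 378 with androgen, and 714, 724 and 697 with androgen plus celastrol. Vehicle and androgen arrays overlapped, and the celastrol arrays lay above both. It was 0.92 ± 0.11 log2 higher with celastrol than androgen (limma, adjusted p = 0.000879). PPP2R2A was the other gene of the list called higher, by 0.65 log2 (adjusted p = 0.00198). TRIM36 (-1.05 log2, adjusted p = 0.000387) and PPP2CB (-0.35 log2, adjusted p = 0.0174) were the 2 called lower. The PPP2CB call also ended when its probe sets were averaged (-0.21 log2, adjusted p = 0.151). Without androgen array 2, androgen array 3 or celastrol array 2 only TRIM36 was, and without vehicle array 3 there were 4.

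Of 28 measured microtubule plus-end genes other than MAPRE2, 1 was called higher and 3 lower with androgen, with a median of -0.02 log2. The sister EB genes did not follow MAPRE2: MAPRE1 read 1735, 1873 and 1917 with vehicle, 2200, 2120 and 2229 with androgen, and 2195, 2120 and 2272 with androgen plus celastrol. Its 0.25 log2 difference between androgen and vehicle did not pass (limma, adjusted p = 0.0908). Under some alternatives MAPRE1 did pass as higher, such as with each array's median subtracted (0.33 log2, adjusted p = 0.0408) or its probe sets averaged (0.32 log2, 0.025). MAPRE3 differed by -0.09 log2 (adjusted p = 0.87). NAV3, a neuron navigator of microtubule tips, fell by 1.52 ± 0.15 log2 (adjusted p = 0.000216). It read 155, 121 and 104 with vehicle, 43.5, 42.4 and 45.1 with androgen, and 39.1, 43.3 and 34.4 with androgen plus celastrol, so the last 2 groups overlapped. MACF1, which crosslinks actin and microtubules, fell by 0.63 log2 (adjusted p = 0.00443), and CLASP2, a microtubule stabiliser, fell by 0.61 log2 (adjusted p = 0.024). NDEL1, a dynein partner, rose by 0.46 log2 (adjusted p = 0.00802).

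CLASP2 did not pass without vehicle array 1 (adjusted p = 0.0646) or androgen array 1 (0.0748), 2 (0.102) or 3 (0.0552). It also missed with each array's median subtracted (-0.53 log2, adjusted p = 0.0601) and in a fit of the 2 groups compared alone (0.07). With celastrol added to androgen, 2 of the 28 were called higher and 2 lower, with a median of -0.01 log2. CLIP1, a plus-end tracker, was 0.69 log2 higher (limma, adjusted p = 0.00196) and DST, dystonin, 0.86 log2 higher (adjusted p = 0.0134), the latter lost without androgen array 2 (0.0547) or 3 (0.0542). CKAP2, a mitotic spindle protein, was lower, at -1.27 log2 (adjusted p = 0.000102) and TACC3, another spindle protein, at -0.67 log2 (adjusted p = 0.00902). Without vehicle array 3, 4 genes were called lower.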

How the data were processed

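Gene expression was measured on 9 single-colour Affymetrix arrays of LNCaP RNA, 3 for each of 3 groups. The values deposited were intensities, linear by their range; the submitters' processing notes name RMA, which corrects background, normalizes between arrays and summarises probes, with no version given. They were converted to log2 with a pseudocount of 0. All 22215 probe sets entered 1 limma 3.58.1 fit in R 4.3.3 (lmFit and eBayes, 6 residual and 2.8 prior degrees of freedom), with Benjamini-Hochberg adjustment and a threshold of 0.05. GEO's platform annotation gave 19724 probe sets 1 gene, 568 several and 1923 none; none was named from several. RMA's normalization across arrays assumes like distributions, which sets all differences relative to the arrays' overall level.

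The 5 genes, the 5 pathway lists and the 6 marker lists were chosen with earlier results of these data known. Beside the 5, named genes were, per list and comparison, up to 3 called genes with the largest differences, direct relatives, the 3 most correlated genes and a few checks; FGF13, TMEM140, DDC, SCARB2, IL36G, MYO5C, SNAP23, PPP2R5A, PPP2R5B, PPP2R5E and CLASP2 were singled out after their values were seen. Fieller intervals at 95% used the fit's variance. The fit was tested on simulated data. Same-numbered vehicle and androgen arrays deviated together (correlations 0.39, 0.37 and 0.63). So did vehicle array 1 with androgen array 2 (0.30) and vehicle array 2 with androgen array 1 (0.41). Vehicle array 3 deviated opposite to androgen arrays 1 (-0.47) and 2 (-0.40), and androgen array 3 opposite to vehicle arrays 1 (-0.50) and 2 (-0.57). The correlations thus match the arrays numbered 3 in these groups but do not tell numbers 1 and 2 apart. The main fit leaves this match out, and a paired fit serves only as an alternative. Celastrol arrays did not pair with those of the same number (-0.27 to 0.22). Alternatives covered scaling, filtering, variance model, probe set choice, array weights, the replicate number as a block and each array left out.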

Additional observations from a re-analysis of the deposited data

How the results depend on the processing

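Of 200 tested values of the 5 genes (5 genes, androgen plus celastrol against androgen and against vehicle, 20 alternatives), 198 kept their direction and their side of the threshold. Those against vehicle could hardly change side, since the genes were chosen by a large fall against the same vehicle arrays. Some alternatives also leave an estimate as it was, such as celastrol against androgen with a vehicle array left out. The count is therefore a weak check. The 2 of the 200 that changed side were the rises of MID1 (0.33 log2, limma adjusted p = 0.0747) and MAPRE2 (0.44 log2, adjusted p = 0.0787) when all probe sets of each gene were averaged. For IL1RN and MAPRE2 that setting mixes in dimmer probe sets. The second MID1 probe set was not dimmer with vehicle (492 against 484) or androgen (71.0 against 64.4). Averaging also gave falls with androgen of -1.61 log2 for IL1RN and -1.62 log2 for MAPRE2, and shares kept of 88.4% for MID1 and 73.0% for MAPRE2. A pseudocount of 16 gave -3.27 log2 for IL1RN and -2.64 log2 for MID1, and subtracting each array's median -2.83 log2 for MID1. With single arrays left out, MAPRE2 kept 64.8 to 72.2% of its fall, the highest without androgen array 3. The replicate block left the rises of MID1 (adjusted p = 0.00515) and MAPRE2 (0.011) and the further fall of COLEC12 (0.00252) past the threshold. As a block it moved the probe sets called from 2333 to 2023 for androgen against vehicle, and apart from the PP2A and IL-1 counts it changed no call and no count of the report by over 1.5 times.

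Probe sets called for androgen against vehicle numbered 2333, 1497 with probe sets averaged, 5136 with array weights and 1552 (without androgen array 2) to 2631 with an array left out. For androgen plus celastrol against androgen they numbered 2792, 1845 averaged, 4524 with weights and 1750 (without androgen array 2) to 3919 with an array left out, including 1844 without androgen array 1 and 1820 without androgen array 3. For androgen plus celastrol against vehicle they numbered 4222, 2725 averaged, 6645 with weights and 3326 to 4365 with an array left out. The array weights did not converge and differed 32.0-fold between arrays. Probe sets near the bottom of the range, such as 216245_at and 211556_at, cannot show a fall. With 3 arrays a group the median SE of a difference between androgen and vehicle was 0.13 log2.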
